A study of Mus musculus with 25 samples.

Results

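The 6 arrays of young CD25-positive thymocytes from transplanted hosts were set against the 2 arrays of normal TN3 thymocytes. They are 8 of the 25 arrays of a mouse study of cell competition in the thymus, and they were chosen by their source labels, young and TN3, with no use of measured values. Each sample was one population of sorted thymocytes, whose RNA was read on an Illumina bead array. The young cells were host cells of strain C57BL/6 with the CD45.2 allele, sorted as CD4-, CD8-, CD3- and CD25+ with no gate on CD44, so that the TN2 and TN3 stages fell into the same sort. The TN3 cells were wild-type controls sorted as CD25+ and CD44-. TN2 cells (2 wild-type control arrays, CD25+ and CD44+) gave the level of the earlier stage. The strain of the TN3 and TN2 samples is given as B6/Ly5.1, whereas their cell type text says B6, so the CD45 allele of these controls is not settled. Old cells with competition (6 arrays) were B6/Ly5.1 donor cells with the CD45.1 allele from wild-type hosts called competitive, and they lay on the same chips as the young cells. Old cells without competition (9 arrays) were F1(WB x B6/Ly5.1) donor cells from Rag2-/-, γc-/-, KitW/Wv hosts. The labels give no age. Nothing in them tells separate mice from repeat samples of the same cells, so each p-value measures the spread between arrays, which may be technical.

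T cell precursors that lack CD4 and CD8 pass through stages that are told apart by CD44 and CD25. TN2 cells carry both proteins, still express genes of multipotent blood progenitors and can give rise to mast cells, dendritic cells and natural killer cells. At the TN3 stage CD44 and Kit are lost, Rag1 and Rag2 rearrange the beta locus of the T cell receptor, and the product is tested together with the pre-T alpha chain encoded by Ptcra. C57BL/6 and B6/Ly5.1 differ in the allele of Ptprc, the gene of CD45 on chromosome 1, and a congenic line such as B6/Ly5.1 also carries donor DNA on both sides of the selected gene.

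Of the young arrays, 3 lay on chip 2 and 3 on chip 4, TN3 array 1 on chip 5 and TN3 array 2 on chip 3, and each TN2 array shared its chip with the TN3 array of the same number. No chip held both young and TN3 cells, so chip and group cannot be told apart. The share of detected probes was 46.7% to 50.1% in young cells and 43.1% to 44.2% in TN3. It was 46.8% to 49.4% in old cells with competition, on the chips of the young cells. In TN2 it was 43.9% to 44.6%, and in old cells without competition 41.1% to 45.7%. The part of this gap between young and TN3 cells in the results was not tested. Array 6 of the old cells with competition stood apart from its group, with 1617 genes over 1 log2 unit from the group mean against 31 to 78 on the others. That array enters no difference between young and control cells, but it widens the estimate of the spread that all groups share.

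The genes behind the sort were read first, as log2 normalized intensities. Cd44, the adhesion receptor that marks TN2 cells, was at 4.46 on both TN3 arrays and between 5.08 and 6.37 (median 5.69) on the young ones, with no overlap. The difference of 1.22 ± 0.21 (log2 ± SE from the limma model of all arrays) had an adjusted p of 0.00184, although 2 of its 7 probes went the other way, the difference was 0.33 as a mean of probes and the call ended in a fit of the young, TN3 and TN2 arrays alone. The TN2 arrays stood at 6.60 and 6.08, inside or above the young range, and the difference from TN2 did not pass (-0.66 ± 0.21, adjusted p = 0.151). Kit, a cytokine receptor of progenitors, stood at 5.78 and 5.60 in TN3, 6.60 to 7.36 (median 6.91) in young cells and 7.73 and 7.49 in TN2. All 6 young values lay between the control groups, but neither difference passed (1.21 ± 0.37, adjusted p = 0.0670 against TN3).

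Il2ra, which encodes CD25, was not detected on either TN3 array, at 4.40 and 4.13, and lay between 5.15 and 5.65 on the young arrays. Its probe was at least 2.11-fold brighter in young cells (adjusted p = 0.00721), yet TN3 cells were sorted for CD25, so this dim probe does not follow the protein. That call ended without TN3 array 2. Rag1 separated young cells from TN2 and not from TN3: it was at 9.05 and 9.18 in TN3, 9.00 to 9.48 (median 9.22) in young cells and 6.92 and 6.68 in TN2. The difference was 0.13 ± 0.30 against TN3 (adjusted p = 0.901) and 2.45 ± 0.30 against TN2 (adjusted p = 6.63e-05). Ptcra stood at 6.80 and 6.60 in TN3, 5.34 to 6.44 in young cells and 4.95 and 4.47 in TN2, and did not pass against TN3 (-0.99 ± 0.35, adjusted p = 0.133). Ptprc itself was at 7.06 and 7.50 in TN3 and 7.31 to 7.61 in young cells, and the groups overlapped (0.19 ± 0.25, adjusted p = 0.807).

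Of 15533 genes, 570 (3.67%) were called different between young and TN3 cells at an adjusted p below 0.05, 386 higher (2.49%) and 184 lower (1.18%) in young cells. The values of the groups did not overlap in 3002 genes (19.3%). Scaling the arrays to one median, in place of quantile normalization, called 3028 higher and 102 lower, 96.7% of calls on the higher side against 67.7%, and it moved the median difference of all genes from 0.00 to 0.25. Without background correction the differences of the 79 called genes that were followed through all settings had a median size of 0.459 times the size given here, so the folds depend on that step. Without TN3 array 2 the counts were 61 and 92, and without TN3 array 1 they were 379 and 206. The excess of higher over lower genes therefore rested on the TN3 array of chip 3. Young cells against TN2 gave 228 calls (1.47%), 133 higher (0.856%) and 95 lower (0.612%) genes, and TN2 against TN3 gave 181 (1.17%), 122 higher (0.785%) and 59 lower (0.38%). These comparisons share arrays.

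Where TN2 lay was then read for each gene called against TN3. Among the 386 higher genes, the TN2 mean was at or above the young mean in 64, between TN3 and young in 287 and at or below the TN3 mean in 35. TN2 itself was called above TN3 in 53 of them. Young cells were called higher than TN2 in 83 (0.534% of all genes tested), lower than TN2 in 6 and neither in 297. Among the 184 lower genes, TN2 was at or below young in 65, between in 118 and beyond TN3 in 1, with 37 called lower in TN2 than in TN3. Young cells were called lower than both TN3 and TN2 in 3 genes (0.0193% of all genes), namely Ctse, Gprc5b and Pkd1l3. Old cells with competition, read on the same chips as young cells, had a mean nearer young than TN3 in 268 of the 386 higher and 172 of the 184 lower genes. These genes were chosen by the gap between young and TN3, which can favour such a result. The count was not made over all genes and is a description.

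The 181 genes that separated TN2 from TN3 placed the young cells between the stages. On a scale that set TN3 at 0 and TN2 at 1 for each gene, 166 of the 181 young means lay between the ends, 6 on the far side of TN3 and 9 past TN2. The median position was 0.52 (quartiles 0.29 and 0.70) over the 122 genes higher in TN2 and 0.72 (0.47 and 0.89) over the 59 lower in TN2. On linear intensities these medians were 0.342 and 0.797. The TN3 and TN2 arrays both chose these genes and set the ends of the scale, so the positions are a description. In RNA from a whole sort, fewer TN2 cells and less of a transcript per cell cannot be told apart.

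Of 16 measured early progenitor and TN2 genes, 4 were higher in young cells than in TN3 and none was lower. That is 25% higher, against 2.49% over all genes, with a median difference of 0.28 against 0.00. Hhex, a homeobox factor of progenitors, was at 4.39 and 4.68 in TN3, 5.63 to 6.95 (median 6.10) in young cells and 6.27 and 6.80 in TN2. All young values lay above TN3 and they overlapped TN2 (1.63 ± 0.27, adjusted p = 0.00122). Lyl1, a basic helix-loop-helix factor of progenitors, was not detected in TN3 and stood at 5.04 to 5.77 in young cells and 6.63 and 6.08 in TN2. It was at least 2.15-fold above TN3 (adjusted p = 0.00165) and was also called below TN2 (-0.97 ± 0.21, adjusted p = 0.0197), with no overlap between the groups. The call against TN2 ended without TN2 array 1 (-0.70), while that against TN3 held in every setting run. Nfe2, a factor of the megakaryocyte and erythroid lineages, was 2.13 ± 0.44 above TN3 (adjusted p = 0.00721) and -0.30 ± 0.44 from TN2, and its call ended without TN3 array 1. The mean of the list was 4.99 to 5.39 on the young arrays, 4.55 to 4.60 in TN3 and 5.54 to 5.63 in TN2, with no overlap.

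Of mast cell, myeloid and red cell genes, 1 of 8, 4 of 18 and 1 of 7 were called higher than TN3. None was called lower. These shares were 12.5%, 22.2% and 14.3%, against 2.49% over all genes. The median differences of these lists were 0.16, 0.18 and 0.02, and they lay at -0.10, -0.08 and -0.19 from the median of all genes when arrays were scaled to one median. Cpa3, a mast cell protease gene that early T cell progenitors also express, stood at 5.13 and 6.10 in TN3, 8.11 to 8.81 (median 8.27) in young cells and 9.39 and 9.29 in TN2. The groups did not overlap, and young cells were 2.76 ± 0.46 above TN3 (adjusted p = 0.00122) and -0.97 ± 0.46 from TN2 (adjusted p = 0.403). No other measured mast cell or basophil gene was called. The mean of that list was 5.29 to 5.72 in young cells, 4.79 to 5.01 in TN3 and 5.53 to 5.71 in TN2. Of the defining mast cell genes, Ms4a2 and Tpsb2 were not among the genes measured here, and Fcer1a was detected on 3 of the 6 young arrays.

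Of the 18 measured myeloid and dendritic genes, 8 were undetected in TN3. Mpo, the neutrophil peroxidase gene, was at 4.12 on both TN3 arrays, 5.01 to 7.33 (median 6.24) on the young arrays and 6.93 and 6.47 in TN2. It was undetected in TN3 and at least 3.66-fold higher in young cells (adjusted p = 0.00128), a call that ended in a fit of the young, TN3 and TN2 arrays alone, as did the call of Btk. Cd163, a scavenger receptor gene, was at 4.08 and 5.29 in TN3, 6.49 to 7.25 in young cells and 7.42 and 7.26 in TN2. Young values lay wholly above TN3 and wholly below TN2 (2.21 ± 0.29 against TN3, adjusted p = 0.000201). Tyrobp, an adaptor of myeloid and natural killer cell receptors, was 1.97 ± 0.34 above TN3 (adjusted p = 0.00156) and was called below TN2 (-1.50 ± 0.34, adjusted p = 0.0233). Its call against TN3 ended without TN3 array 2, and that against TN2 without either TN2 array.

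The mean of the myeloid list was 5.07 to 5.52 in young cells, 4.50 to 4.56 in TN3 and 5.26 to 5.53 in TN2. Of its defining genes, Itgam, Fcgr3 and S100a8 were not among the genes measured here, C1qa was undetected on all young arrays and Adgre1 was detected on 1 of them. Hbb-b1, a beta-globin gene, had the widest rise, from 5.26 and 4.18 in TN3 to between 7.37 and 9.77 (median 8.38) in young cells, below 10.0 and 10.4 in TN2. Its difference of 3.81 ± 0.90 (adjusted p = 0.0174) lost its call without TN3 array 2, and as a mean of probes it was 1.37. Alas2, the red cell heme synthase gene, was undetected on all young arrays (-0.44 ± 0.18 against TN3, adjusted p = 0.210). None of 6 B cell, 10 natural killer, innate lymphoid and gamma-delta, 8 thymic stroma or 9 MHC class II genes was called against TN3 by limma, and at an unadjusted p below 0.05 these lists had 0, 2, 0 and 0. The B cell list averaged 4.94 to 5.46 in young cells and 5.14 to 5.16 in TN3, and the natural killer list 5.55 to 5.79 and 5.22 to 5.32. The stroma list averaged 5.04 to 5.36 in young cells and at most 5.21 in TN3, and the class II list 4.98 to 5.54 and 4.99 to 5.01. The part of other cell types in the calls of progenitor and myeloid genes was not tested.

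**Figure D1:**
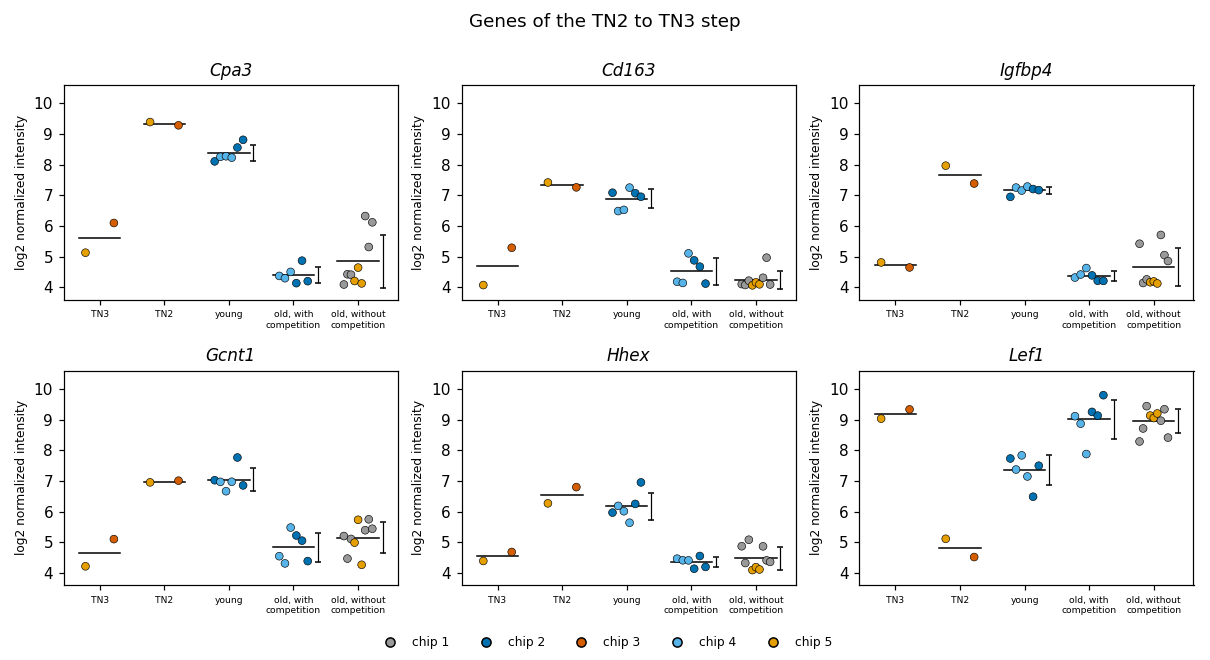
Log2 normalized intensity (vertical axis) of 6 genes in the 5 groups (horizontal axis), with 1 point per array coloured by chip, a line at the group mean and a bar of 1 SD for groups of more than 2 arrays. Young cells lie near TN2 for Cpa3, Cd163, Igfbp4, Gcnt1 and Hhex and between TN2 and TN3 for Lef1, while both old groups lie near or below TN3.

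Many of the largest rises were of genes with a TN2 level like that of young cells. Igfbp4, an insulin-like growth factor binding protein gene, was at 4.81 and 4.65 in TN3, 6.95 to 7.29 in young cells and 7.97 and 7.39 in TN2 (2.44 ± 0.32 against TN3, adjusted p = 0.000201). Young values lay above TN3 and below TN2. Litaf, a gene of endosomal trafficking, was 2.40 ± 0.33 above TN3 (adjusted p = 0.000236), and Gcnt1, an O-glycan branching enzyme gene, was 2.38 ± 0.36 above (adjusted p = 0.000587). Their differences from TN2 were -0.21 ± 0.33 and 0.06 ± 0.36. F2r, the thrombin receptor gene, was 2.33 ± 0.48 above TN3 (adjusted p = 0.00669), a call that ended without TN3 array 1. Emilin2, an extracellular matrix gene, Deptor, an inhibitor of mTOR, and Btk, a kinase of B and myeloid cells, were undetected in TN3 and detected on all young and TN2 arrays. They were at least 4.10-fold, 2.80-fold and 1.51-fold higher in young cells (adjusted p = 8.26e-07, 0.000638 and 0.00410), and these 3 were named after their values were seen. Btk was also called below TN2 (-0.63, adjusted p = 0.0197), a call that ended without TN2 array 2.

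Of 20 measured TN3 and beta-selection genes, 1 was higher (Il2ra) and 1 lower (Lef1) than in TN3, while 5 were higher and none lower than in TN2. Against TN3 that is 5% higher and 5% lower, beside 2.49% and 1.18% over all genes. Over all genes 0.856% were higher than in TN2. Lef1, a factor that works with Tcf7 in early T cells, was at 9.03 and 9.33 in TN3, 6.48 to 7.83 (median 7.43) in young cells and 5.11 and 4.51 in TN2. The 3 groups did not overlap, with young cells -1.84 ± 0.38 from TN3 (adjusted p = 0.00669) and 2.53 ± 0.38 from TN2 (adjusted p = 0.000904). The call against TN3 ended without TN3 array 2. The median of the list was -0.14 against TN3 and 0.69 against TN2, and the first became 0.22 above the median of all genes when arrays were scaled to one median. Cd28, a costimulatory receptor gene, stood at 4.84 to 5.84 in young cells, 6.86 and 6.43 in TN3 and 5.44 and 5.13 in TN2 (-1.31 ± 0.40 against TN3, adjusted p = 0.0718), with TN2 inside the young range. Of 10 Notch pathway genes only Il2ra was called (10% higher, against 2.49% over all genes). Their median difference from TN3 was -0.36, and Hes1, a direct Notch target, was at 5.16 to 6.05 against 6.68 and 6.20 (-0.91 ± 0.32, adjusted p = 0.132).

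The next group was of genes induced by interferons, which act through STAT factors and IRF proteins at promoters. Among those called, 4 carried a shared motif in the RefSeq promoter table (GRCm38.p6, 250 bases before to 50 after the gene start). The motif was GAAA, any 2 bases and GAAA again, on either strand, the core to which IRF proteins are known to bind. The windows below show it in these 4 genes, which were picked for carrying it. They lie at chr3:142559954-142560043 (Gbp3, plus strand), chr3:142496724-142496823 (Gbp5, plus), chr3:142530238-142530335 (Gbp7, plus) and chr17:36042879-36042978 (H2-T22, minus). Each is printed from 5′ to 3′ on the strand of the gene, with the match in capitals, which is on the reverse strand in every window. In Gbp3 a further match overlaps the capitals.
Gbp3: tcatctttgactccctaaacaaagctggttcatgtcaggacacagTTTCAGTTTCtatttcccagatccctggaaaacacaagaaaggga
Gbp5: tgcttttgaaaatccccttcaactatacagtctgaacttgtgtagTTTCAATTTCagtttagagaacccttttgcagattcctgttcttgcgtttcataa
Gbp7: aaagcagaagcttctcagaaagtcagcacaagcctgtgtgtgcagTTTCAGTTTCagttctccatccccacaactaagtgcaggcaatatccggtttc
H2-T22: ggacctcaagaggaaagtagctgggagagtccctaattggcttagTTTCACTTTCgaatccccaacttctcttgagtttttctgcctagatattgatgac
The motif was in 425 of the 11115 promoters of measured genes (3.82%), in 25 of 49 promoters of the interferon, MHC class I and peptide loading lists (51%) and in 17 of 289 promoters of genes higher in young cells (5.88%). Of the 11 called members of those lists with a promoter in the table, 4 (36.4%) held it. A match is a description of these letters and not a site.

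Of 17 measured interferon-induced GTPase genes and their regulators, 7 (41.2%, against 2.49% of all genes) were higher in young cells than in TN3. None of the 17 was lower. Their median difference was 0.79 against TN3 and 0.73 against TN2, so that TN2 stood near TN3 for this list (median 0.09). The mean of the list was 6.19 to 6.61 on the young arrays, above 5.44 to 5.59 in TN3, 5.60 to 5.80 in TN2 and 5.54 to 5.85 in old cells with competition. The young arrays did not overlap any of these groups. The list was chosen with results of these arrays known, so this separation is no independent evidence.

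Gvin1, which encodes a very large interferon-inducible GTPase, was at 4.41 and 4.67 in TN3, 7.24 to 8.00 (median 7.76) in young cells and 7.16 and 6.44 in TN2. Young values lay above both controls, 3.16 ± 0.44 above TN3 (adjusted p = 0.000310), but the difference of 0.90 ± 0.44 from TN2 did not pass (adjusted p = 0.428). Gbp3, a guanylate-binding protein gene, was at 4.85 and 5.33 in TN3, 5.32 and 5.81 in TN2 and 6.27 to 7.17 (median 6.62) in young cells. It was called above both, by 1.60 ± 0.26 from TN3 (adjusted p = 0.000947) and 1.12 ± 0.26 from TN2 (adjusted p = 0.0261), and the second call ended without either TN2 array. In old cells with competition it spanned 4.85 to 5.89, again below every young array. Ifi47, an interferon-induced GTPase gene, was also above both, by 0.96 ± 0.25 (adjusted p = 0.0344) and 1.21 ± 0.25 (adjusted p = 0.0159). Without TN2 array 2 the latter fell to 0.62 and was not called. The old cells with competition stood at 6.16 to 6.59, against 6.49 to 6.91 in young cells, so these groups overlapped.

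Irf1, the interferon regulatory factor that drives many of these genes, was at 8.46 and 8.40 in TN3, 8.92 and 9.10 in TN2 and 9.31 to 9.80 (median 9.55) in young cells, with no overlap. It was 1.12 ± 0.21 above TN3 (adjusted p = 0.00394), with 3 of 5 probes of opposite sign. As a mean of all its probes the difference was 0.17 and was not called (adjusted p = 0.71). Gbp5 was 2.07 ± 0.53 and Gbp7 1.09 ± 0.27 above TN3 (adjusted p = 0.0289 and 0.0215), and Gbp4, undetected in TN3, was at least 1.39-fold higher (adjusted p = 0.0364). Without TN3 array 2 the calls of Irf1, Gbp4, Gbp5, Gbp7 and Ifi47 ended, and those of Gvin1 and Gbp3 against TN3 did not. Gbp5 then stood 1.23 above TN3. The calls of Gbp4, Gbp7 and Ifi47 also ended without TN3 array 1, and those of Gbp4, Gbp5 and Ifi47 without some single young arrays. Of 26 measured antiviral interferon genes, 2 (7.69%, against 2.49% of all genes) were called higher. They were Cmpk2 (1.11 ± 0.23, adjusted p = 0.00710) and the mono-ADP-ribosyltransferase gene Parp14 (1.35 ± 0.32, adjusted p = 0.0182). Both calls ended without TN3 array 1, and that of Parp14 also without array 2. The median difference of that list was 0.35 against TN3 and 0.11 against TN2.

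Of 15 measured MHC class I genes, 6 (40%, against 2.49% of all genes) were higher in young cells than in TN3. The median of the list was 0.80 against TN3 and 0.49 against TN2. H2-K1, a classical class I heavy chain gene, was at 6.78 and 6.51 in TN3, 7.33 and 7.05 in TN2 and 7.34 to 8.23 (median 7.96) in young cells. The young values lay above TN3 and, narrowly, above TN2 (1.24 ± 0.25 against TN3, adjusted p = 0.00580; 0.70 ± 0.25 against TN2, adjusted p = 0.195). H2-Q5, H2-Q6, H2-Q7 and H2-Q8, of the Qa region, were higher than in TN3 by 1.35, 0.92, 0.80 and 1.51 (adjusted p = 0.00721, 0.0118, 0.00725 and 0.0172). H2-Q6 was also called above TN2 (0.96 ± 0.21, adjusted p = 0.0184), as was H2-T22 (0.95 ± 0.24 against TN2, adjusted p = 0.0407; 0.90 ± 0.24 against TN3, adjusted p = 0.0322). These calls against TN2 ended without TN2 array 2, and that of H2-Q6 also without array 1. For H2-T22 the old cells with competition were at 6.11 to 6.86, across the young range of 6.21 to 6.77. For H2-Q6 they were at 5.31 to 5.90, below the young median of 6.39. These class I genes are near-identical paralogs, so a probe of one may read another.

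Each of the 6 class I calls ended when 1 of the TN3 arrays was left out: H2-K1, H2-Q5 and H2-T22 without array 2, H2-Q7 and H2-Q8 without array 1, and H2-Q6 without either. That of H2-T22 also ended without some single young arrays, with a difference of 0.57 without TN3 array 2, and that of H2-Q8 fell to 0.76 without array 1. As means of all probes, H2-Q5 (0.64) and H2-Q7 (0.33) were not called. Of 13 genes of peptide loading and the immunoproteasome, 1 was called (7.69% higher, against 2.49% over all genes). This was Tap1, a subunit of the peptide transporter (1.05 ± 0.25, adjusted p = 0.0183). It ranged from 5.36 to 6.35 in young cells and stood at 6.49 and 5.57 in TN2, and its call ended without either TN3 array. Nlrc5, the class I transactivator, was at 7.18 to 8.26 in young cells, above 5.84 and 6.87 in TN3, but did not pass (1.45 ± 0.50, adjusted p = 0.110).

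**Figure D2:**
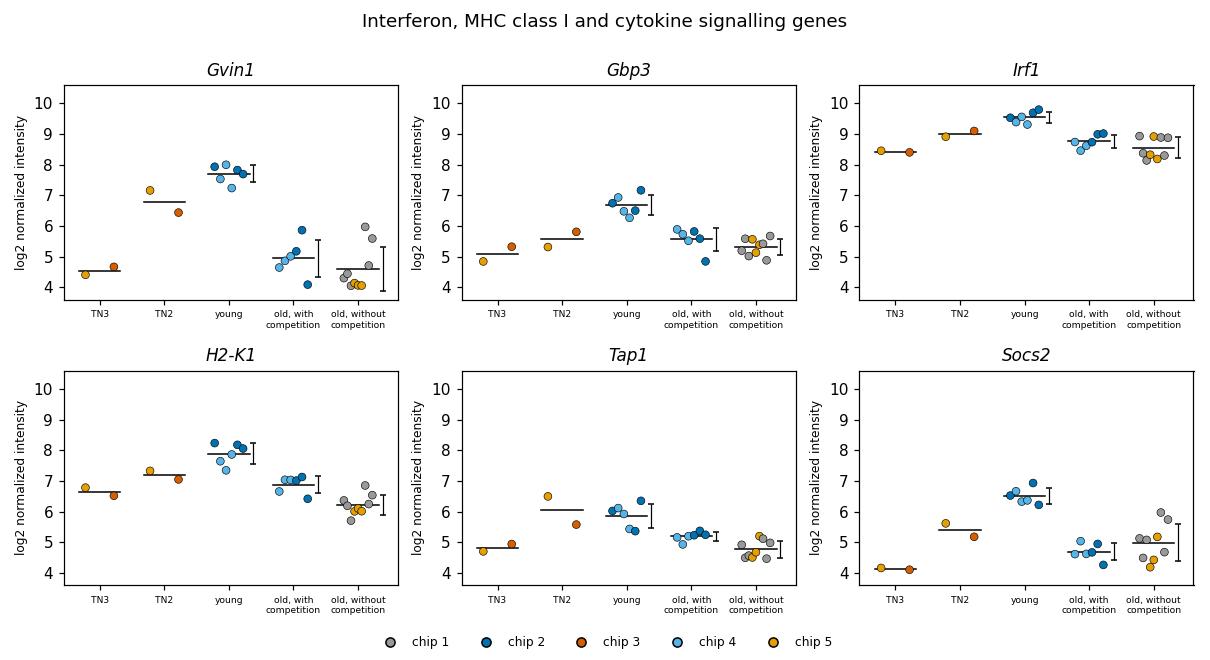
Log2 normalized intensity (vertical axis) of 6 genes in the 5 groups (horizontal axis), with 1 point per array coloured by chip, a line at the group mean and a bar of 1 SD for groups of more than 2 arrays. The young arrays lie above all TN3 arrays for each gene, above TN2 for Gvin1, Gbp3, Irf1, H2-K1 and Socs2, and among TN2 for Tap1.

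Signals from the IL-7 receptor reach the nucleus through Jak1 and Stat5, and Socs2 is a feedback inhibitor induced by Stat5. Of 16 measured genes of this pathway, 3 (18.8%, against 2.49% of all genes) were higher in young cells than in TN3. None was lower (median 0.27). Socs2 was undetected in TN3, at 4.16 and 4.10, and stood at 6.22 to 6.93 (median 6.44) in young cells and at 5.61 and 5.18 in TN2. It was at least 4.66-fold above TN3 (adjusted p = 0.000375), whereas the difference of 1.11 ± 0.34 from TN2 did not pass (adjusted p = 0.116). Values of 4.26 to 5.03 in old cells with competition lay below every young array. Stat5b was at 4.44 and 4.18 in TN3 and 5.27 to 6.31 in young cells (1.45 ± 0.29, adjusted p = 0.00590), and Jak1, undetected in TN3, was at least 1.63-fold higher (adjusted p = 0.00682). The last 2 calls ended without TN3 array 2. For both genes old cells with competition overlapped the young range. They were at 5.76 to 6.27 for Stat5b, and at 4.50 to 5.15 for Jak1 against 4.86 to 5.19 in young cells. Bcl2, a survival gene downstream of this pathway, named after its values were seen, stood at 8.40 to 9.02 against 7.58 and 7.61 in TN3 (1.22 ± 0.36, adjusted p = 0.0590).

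The remaining lists were read beside the shares over all genes, 2.49% higher and 1.18% lower. Called higher were 11.1% of DNA replication, 5.56% of mitosis, 7.69% of immediate early and 11.8% of oxidative phosphorylation genes. Of unfolded protein genes 16.7% were higher and 8.33% lower, and of homing and adhesion genes 7.69% and 15.4%. Of 18 DNA replication genes, Mcm6, a helicase subunit, and Pcna, the sliding clamp, were higher (1.23 ± 0.25, adjusted p = 0.00666; at least 2.15-fold from an undetected TN3 level, adjusted p = 0.0183). Of 18 mitosis genes, only the centromere histone gene Cenpa was higher (0.74 ± 0.19, adjusted p = 0.0300). Yet 17 of the 18 differences were above 0, with a median of 0.52 against TN3 and -0.22 against TN2. Old cells with competition overlapped the young range for Mcm6, Pcna and Cenpa, at 8.96 to 10.31, 4.26 to 5.75 and 9.05 to 9.66. The young arrays spanned 9.94 to 10.45, 4.97 to 5.71 and 9.08 to 9.45. Ier3, an immediate early gene, was 2.12 ± 0.52 above TN3 (adjusted p = 0.0218) and -0.85 ± 0.52 from TN2. In the unfolded protein list, Herpud1 and Dnajb9, of the degradation and folding machinery of the endoplasmic reticulum, were higher (1.20 ± 0.23 and 1.20 ± 0.26, adjusted p = 0.00394 and 0.0101), and Edem1 was lower (-1.53 ± 0.31, adjusted p = 0.00710). In the homing and adhesion list, Cd24a was at least 2.33-fold higher from an undetected TN3 level. Cd24a and Pcna were also called above TN2 (1.22 and 1.25, adjusted p = 0.0432 and 0.0384), calls that ended without either TN2 array. Pcna was undetected in TN2 too, at 4.14 and 4.12, so both of its differences start from the floor. Cxcr4, the receptor for CXCL12, was lower (-0.82 ± 0.22, adjusted p = 0.0392; 0.05 when arrays were scaled to one median), and so was Itgae, the alpha E integrin gene (-1.54 ± 0.33, adjusted p = 0.00739).

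Of 17 oxidative phosphorylation genes, Atp5a1 and Ndufb5 were higher (1.62 ± 0.34 and 1.43 ± 0.40, adjusted p = 0.00714 and 0.0442). None of 13 p53 target, 11 heat shock, 11 ribosomal protein, 7 Gimap or 8 later thymocyte genes was called by limma, and at an unadjusted p below 0.05 they had 0, 2, 4, 0 and 0. The median differences from TN3 of these 5 lists were 0.08, -0.05, 0.13, 0.13 and 0.01. When arrays were scaled to one median, they lay 0.06, 0.11, 0.49, 0.44 and 0.31 above the median of all genes. The calls of Mcm6, Pcna, Cenpa, Herpud1, Dnajb9, Atp5a1, Ndufb5, Cd24a, Cxcr4 and Itgae ended without TN3 array 2, and those of Ier3, Edem1, Pcna, Cenpa, Cd24a and Cxcr4 without TN3 array 1. That of Mcm6 also ended as a mean of probes (0.73). Cenpa, Ndufb5 and Cxcr4 also lost their calls when some single young arrays were left out.

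**Figure D3:**
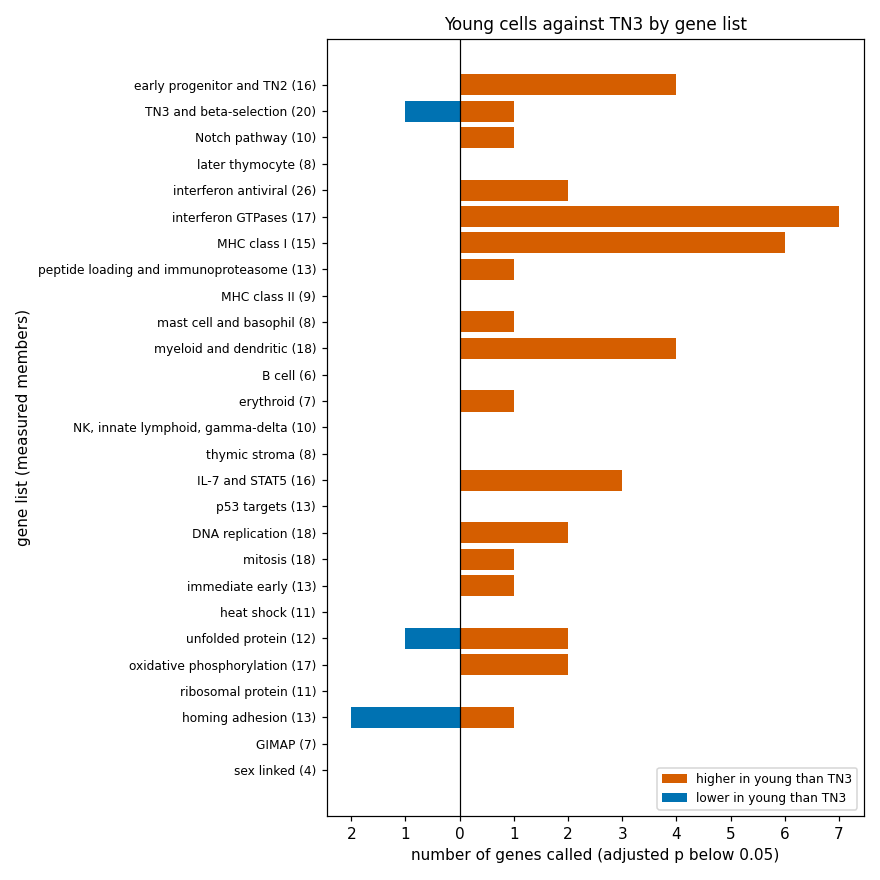
Number of genes called higher (right) or lower (left) in young cells than in TN3 (horizontal axis, adjusted p below 0.05) for each gene list (vertical axis, with the number of measured members). The lists of interferon GTPases and MHC class I genes had 7 and 6 calls on the higher side and none on the lower, against 2.49% and 1.18% over all genes.

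The 83 genes called above both TN3 and TN2 were read array by array, since their controls share chips 3 and 5. In 71 of the 83 (85.5%), TN3 array 2, of chip 3, was lower than TN3 array 1, of chip 5, with a median gap of -0.89. TN2 array 2, also of chip 3, was lower than TN2 array 1 in 76 of them (median -0.85), and both were lower in 69. Over all genes the corresponding share was 48.6% with a median of 0.01, and over the 386 higher genes it was 74.4% with a median of -0.33. Old cells with competition, on the chips of the young cells, had a mean nearer young than TN3 in 71 of the 83 and nearer TN3 in 12. The 83 were chosen for young values above the control arrays, so this split is a description, with no count over all genes. The calls against TN2 rested on single arrays as well. Of the 96 genes followed through all settings, 34 were called against TN2, and 27 of these lost that call when at least 1 array was left out, 25 without TN2 array 2 and 13 without TN2 array 1. The parts of chip, strain and host in these levels were not tested.

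Hnrnpdl, an RNA-binding protein gene, shows the pattern. It stood at 7.56 and 4.18 on TN3 arrays 1 and 2, at 7.22 and 4.93 on TN2 arrays 1 and 2, at 7.92 to 8.73 in young cells and at 8.26 to 8.90 in old cells with competition. The chip 3 arrays were low in both stages, and the difference of 2.38 ± 0.53 (adjusted p = 0.0118) fell to 0.68 without TN3 array 2. Entpd5, an endoplasmic reticulum nucleotidase gene, was at 6.58 and 5.02 in TN3, 7.07 and 5.31 in TN2 and 7.80 to 8.55 in young cells (2.37 ± 0.35, adjusted p = 0.000587; 1.58 without TN3 array 2 and 0.55 as a mean of probes, neither called). In old cells with competition Entpd5 was at 7.15 to 7.71, below every young array. Hnrnpdl and Entpd5 each had 4 probes, 2 of them of opposite sign. Rras2, Spint2 and Fin14 were above TN3 by 1.82, 1.80 and 1.77 and above TN2 by 2.21, 2.06 and 2.03, with old cells with competition overlapping the young range. Their calls against TN3 ended without TN3 array 2, and those against TN2 ended without TN2 array 2 for Rras2 and Spint2 but not for Fin14.

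With the control arrays of chip 5 alone, 83 genes were higher and 107 lower than TN3, and 7 were above both controls. With those of chip 3 alone these counts were 405, 217 and 156. Called in both were 52 genes higher than TN3, 11 lower, 4 above both controls and 1 below both, all of them also called with all arrays. The 4 were Kdelr1, Ptpn7, Selenok and Stmn1, and the 1 was Ctse. Kdelr1, a receptor that returns proteins to the endoplasmic reticulum, was at 6.75 and 5.17 in TN3, 6.39 and 5.24 in TN2, 7.62 to 8.16 in young cells and 7.41 to 8.26 in old cells with competition (1.97 ± 0.31 against TN3, adjusted p = 0.000638). Stmn1, a microtubule regulator gene of dividing cells, was at 7.44 and 5.61 in TN3, 7.71 and 6.58 in TN2 and 8.54 to 8.85 in young cells (2.15 ± 0.31 against TN3, adjusted p = 0.000375). That difference was 3.07 without TN3 array 1 and 1.23 without array 2, called in both, and the call against TN2 ended when TN2 array 2 alone was left out. Selenok, a selenoprotein gene of the endoplasmic reticulum, was 2.13 ± 0.24 above TN3 (adjusted p = 1.89e-05) and 1.59 ± 0.24 above TN2 (adjusted p = 0.000904). Kdelr1 lost its call without TN3 array 2 (1.18) in the fit that kept both TN2 arrays. For Stmn1, Selenok and Kdelr1 the old cells with competition overlapped the young range, and for Ptpn7 they did not.

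**Figure D4:**
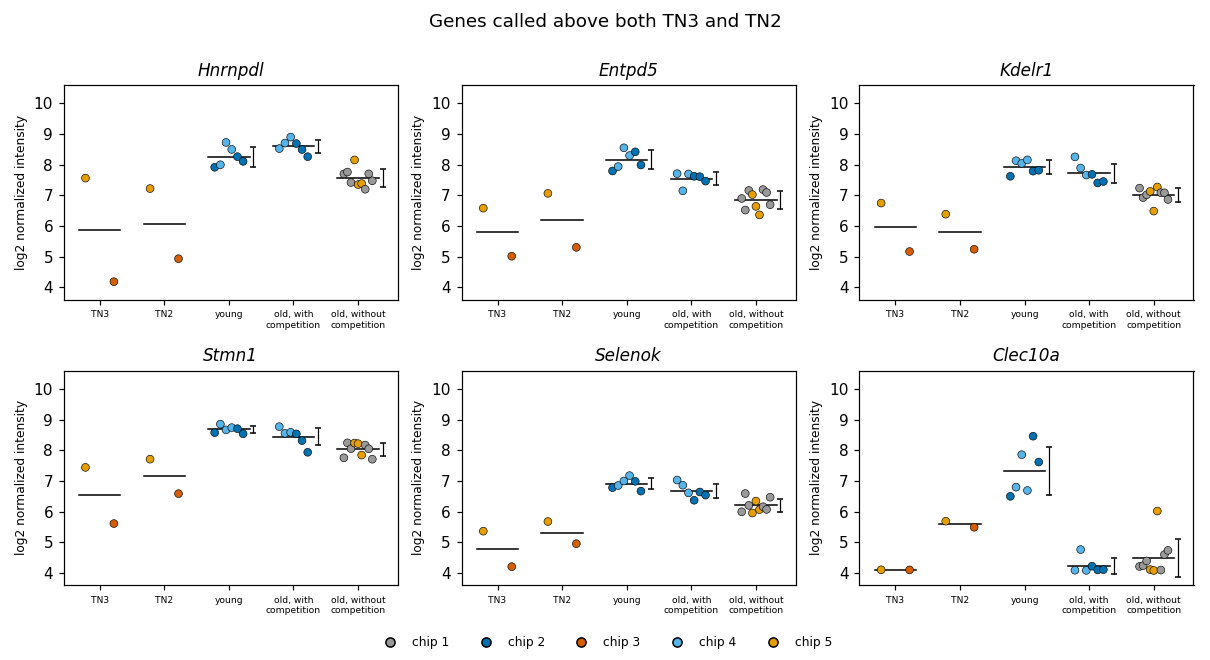
Log2 normalized intensity (vertical axis) of 6 genes called above both controls in the 5 groups (horizontal axis), with 1 point per array coloured by chip, a line at the group mean and a bar of 1 SD for groups of more than 2 arrays. The chip 3 points of TN3 and TN2 lie below the chip 5 points for Hnrnpdl, Entpd5, Kdelr1, Stmn1 and Selenok. For these genes the mean of old cells with competition is nearer young than TN3, though for Entpd5 they lie below every young array. Clec10a is highest in young cells.

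The 12 genes above both controls for which old cells with competition stood nearer TN3 were Akr1c12, Bpifc, Ckap4, Clec10a, Fam20a, Foxd2os, Gbp3, Gm12250, H2-Q6, Ptpn7, Retreg1 and Zc3h12d. They were named after their values were seen. Clec10a, a lectin receptor gene of macrophages and dendritic cells, was undetected in TN3, at 4.10 on both arrays, and stood at 5.68 and 5.49 in TN2. It ranged from 6.50 to 8.46 (median 7.20) in young cells and from 4.08 to 4.76 in old cells with competition. Young cells lay above all these groups, at least 8.20-fold above TN3 (adjusted p = 0.000236) and 1.73 ± 0.44 above TN2 (adjusted p = 0.0436). The call against TN3 held in every setting run, and that against TN2 ended without either TN2 array. Bpifc, of the lipid-binding BPI family, was undetected in TN3 and at 5.54 to 5.90 in young cells, 5.33 and 4.13 in TN2 and 4.09 to 4.42 in old cells with competition (at least 2.74-fold above TN3, adjusted p = 0.000149), and its call against TN2 ended without TN2 array 2.

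Ckap4 and Fam20a, which encode a membrane protein of the endoplasmic reticulum and a pseudokinase of the secretory pathway, had no detected signal in TN3. They stood at least 2.08-fold and 2.15-fold higher in young cells (adjusted p = 0.00144 for both). In old cells with competition they reached 4.72 and 4.41, below the lowest young values of 4.98 and 5.01. The call of Ckap4 ended without TN3 array 2, and that of Fam20a when the mean of its probes was used, and both lost their calls against TN2 without TN2 array 2. Akr1c12, an aldo-keto reductase gene, was at 4.92 and 6.31 in TN3, 5.55 and 5.76 in TN2 and 6.66 to 8.19 (median 7.90) in young cells. Young values lay above both controls (1.99 ± 0.49 against TN3, adjusted p = 0.0210), with a call that ended without TN3 array 1 (1.29) and a call against TN2 that ended without either TN2 array. Retreg1, a receptor for the turnover of endoplasmic reticulum, overlapped TN3, since 1 young array was at 4.88 and TN3 array 2 at 4.89 (1.39 ± 0.30, adjusted p = 0.00846), and its call ended without TN3 array 1.

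Genes near Ptprc on chromosome 1 were read because the labels give young cells the CD45.2 allele and the B6/Ly5.1 donor cells the CD45.1 allele. The allele of the TN3 and TN2 controls is not settled by their labels. Among the 50 measured genes on each side of Ptprc, 4 were higher than TN3 (Cyb5r1, Ptpn7, Aspm and Rnf2) and 3 lower (Ptprv, Camsap2 and Glrx2), which is 7% of 100, against 4.92% over the rest of chromosome 1 and 3.67% over all genes. Ptpn7, a hematopoietic tyrosine phosphatase gene 19 measured genes from Ptprc, was undetected on all TN3 and TN2 arrays. It stood at 4.07 and 4.11 in TN3, 4.06 and 4.24 in TN2, 4.07 to 4.23 in old cells with competition and 6.22 to 6.77 (median 6.36) in young cells. All arrays of TN3, TN2 and old cells with competition were at the floor and every young array was above it, at least 4.47-fold over TN3 (adjusted p = 1.80e-06). The 9 arrays of old cells without competition, from F1 donors, averaged 5.27 and lay between 4.62 and 5.75, apart from both. These calls held in all settings run. None of the other 6 called neighbours passed against TN2, and none was called against TN3 with the control arrays of chip 5 alone as well as with those of chip 3 alone.

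Ctse, the gene of cathepsin E, an aspartic protease of antigen-presenting and other cells, gave the strongest difference in the other direction. It lay 60 measured genes from Ptprc on chromosome 1, outside the window, and was placed there after its values were seen. It was at 7.81 and 7.69 in TN3, 7.87 and 8.20 in TN2, 7.32 to 8.27 in old cells with competition and 4.16 to 5.05 (median 4.73) in young cells. Old cells without competition, from F1 donors, averaged 7.29 and lay between 6.73 and 7.94, a range that held both TN3 values. No young array overlapped any other group. The difference was -3.08 ± 0.26 from TN3 (adjusted p = 4.51e-07) and -3.36 ± 0.26 from TN2 (adjusted p = 7.47e-08), and both calls held in all settings run. Camsap2, a microtubule end-binding protein gene, was lower than TN3 (6.49 and 7.81 against 4.90 to 5.76; -1.92 ± 0.30, adjusted p = 0.000638) and not called different from TN2 (4.51 and 5.13). The range in old cells with competition was 4.76 to 5.38, inside or below the young range, and the call ended without TN3 array 2. Whether the probes of these genes differ in binding between the strains' alleles was not tested.

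**Figure D5:**
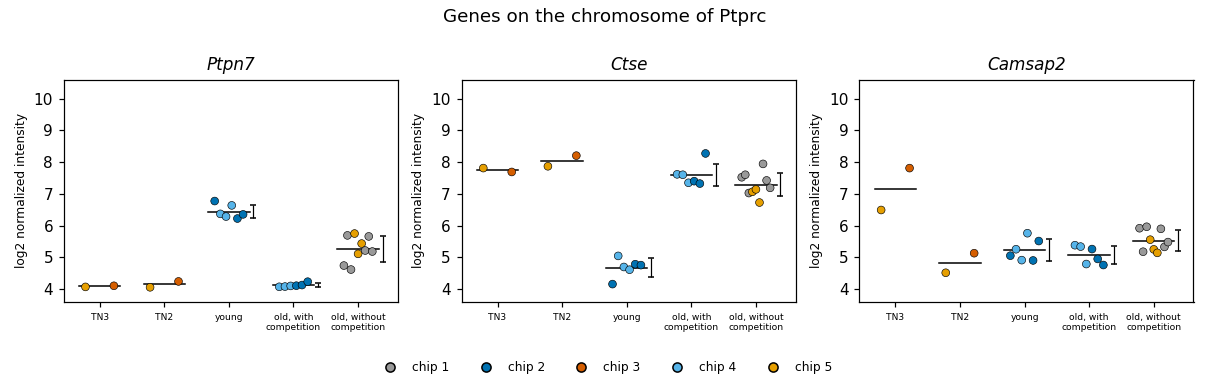
Log2 normalized intensity (vertical axis) of Ptpn7, Ctse and Camsap2 in the 5 groups (horizontal axis), with 1 point per array coloured by chip, a line at the group mean and a bar of 1 SD for groups of more than 2 arrays. For Ptpn7 and Ctse the young arrays stand apart from TN3, TN2 and old cells with competition, and for Camsap2 the TN3 arrays stand apart from all others.

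The largest falls other than Ctse were Scn4b, a sodium channel beta subunit gene, and Gprc5b, an orphan receptor gene. Scn4b was at 7.59 and 8.44 in TN3, 4.34 to 5.50 (median 4.99) in young cells and 4.11 and 4.85 in TN2 (-3.08 ± 0.51, adjusted p = 0.00122). Young cells overlapped TN2 and lay below TN3, and the call ended without TN3 array 2. Gprc5b was at 8.32 and 7.54 in TN3, 6.36 and 7.54 in TN2 and 4.17 to 5.74 (median 4.69) in young cells. It was below both controls, by -3.02 ± 0.51 (adjusted p = 0.00139) and -2.05 ± 0.51 (adjusted p = 0.0432), and old cells with competition were as low, at 4.20 to 5.27. The call against TN2 ended without TN2 array 2 (-1.46) and without some single young arrays. Pkd1l3 was below both by -0.70 ± 0.14 and -0.58 ± 0.14 (adjusted p = 0.00506 and 0.0312), and old cells with competition again overlapped young cells. Its call against TN3 ended without TN3 array 1, and that against TN2 without either TN2 array.

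Hdgfrp3 (-2.31 ± 0.49, adjusted p = 0.00739) had a TN2 level under the young one and was undetected in TN2. Ptprv (-1.98 ± 0.40, adjusted p = 0.00636), a phosphatase gene, was also low in young cells against TN2, by -1.35 ± 0.40, without passing there. Dmpk, a myotonic dystrophy kinase gene (-1.91 ± 0.37, adjusted p = 0.00485), and Urm1, a ubiquitin-like modifier gene (-1.88 ± 0.36, adjusted p = 0.00430), were not called different from TN2. The calls of Hdgfrp3 and Ptprv ended without TN3 array 2, and those of Dmpk and Urm1 without TN3 array 1.

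The sex-linked genes split the young and control arrays by chip. Eif2s3y, a Y-linked gene, was between 7.56 and 7.86 on the 3 young arrays of chip 4 and between 4.07 and 4.11 on the 3 of chip 2. Xist, the X-inactivation RNA, named after its values were seen, was between 4.11 and 4.16 on the former and 8.82 and 9.58 on the latter. TN3 array 1 had Xist at 9.40 and Eif2s3y at 4.13, and TN3 array 2 had them at 4.47 and 6.78. TN2 array 1 had 9.26 and 4.38, and TN2 array 2 had 4.19 and 6.97. Chip and these genes therefore moved together in young cells and in the controls. None of the 4 measured sex-linked genes of the list was called between young and TN3 cells (adjusted p of at least 0.678). Both groups held Xist-high and Eif2s3y-high arrays in even shares, so this comparison could not separate them. The part of sex in the other differences was not tested.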

How the data were processed

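Total RNA was isolated with RNAzol B and labelled with the Ambion MessageAmp kit, per the labels' protocols. The authors' deposited table held non-normalized bead intensity values for 46237 probes on a linear scale, each with a deposited detection p-value. Their deposited log2 table, whose values were already quantile normalized, served as an alternative. No source used here names the genome build behind the probes.

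Intensities were background-corrected from the detection p-values (limma 3.58.1 in R 4.3.3, offset 16), and quantile normalized, and the 30174 probes with a detection p under 0.05 on 3 or more arrays were kept. Each of the 15533 genes was represented by its brightest probe. Probe names came from the platform annotation, updated through RefSeq, and 10453 probes had no symbol. A single limma fit of all 25 arrays had a term for each group, and chip entered as a random block (statmod 1.5.0, correlation 0.00457). Every adjusted p is two-sided, from this limma fit, with the Benjamini-Hochberg adjustment across all genes. Where no array of a group detected a gene, the fold is a lower bound, taken against each array's dimmest detected signal (or the gene's own, if brighter), averaged over the group. The number of arrays limits the precision.

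The members, gene lists and tests were chosen with earlier results of these data known. Genes were named by this rule: the sort genes, 12 rises and 8 falls by size among called genes without overlap, the 8 genes furthest beyond both controls in each direction, 3 per list and the called neighbours of Ptprc, with predicted genes skipped. All called list members and the genes said to be named after their values were seen were added to these. The fit was tested on simulated data. Alternatives changed the background, scaling, filter, block, probe choice and arrays used.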

Additional observations from a re-analysis of the deposited data

Results flagged for a closer look

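Within the 6 young arrays, 5 of 96 genes examined had 1 array far from the rest by Dixon's criterion, which chance alone meets in about 1 in 20 groups. Gcnt1 was at 7.76 on array 5, against 6.66 to 7.02 on the others, and Alox5ap was at 8.56 on the same array, against 7.73 to 8.00. Dmpk was at 4.57 on array 2 (others 4.13 to 4.28), Glrx2 at 5.98 on array 6 (others 6.24 to 6.38) and Retreg1 at 4.88 on array 1 (others 5.95 to 6.38). Without the array in question the calls of Gcnt1, Dmpk, Glrx2 and Retreg1 against TN3 remained, and Alox5ap was not called with all arrays.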

How the results depend on the processing

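The counts of genes higher, lower, higher than both controls and lower than both controls were 386, 184, 83 and 3. Scaling to one median gave 3028, 102 and 968 for the first 3, in the same order. The young arrays of chip 2 alone gave 163, 61, 13 and 1, and those of chip 4 alone 226, 80 and 38. Leaving out array 6 of old cells with competition, whose spread enters the shared error, gave 608, 331, 155 and 10. The control arrays of chip 5 alone, an alternative chosen after seeing the data, gave 83, 107, 7 and 5, and those of chip 3 alone gave 156 above and 6 below both. The young, TN3 and TN2 arrays alone gave 9 above and 1 below both, and no filter or an offset of 50 gave 5 below both each. Leaving out 1 young, TN3 or TN2 array at a time gave 61 to 428 higher, 92 to 211 lower, 7 to 118 above both and 1 to 6 below both. The lowest counts came without TN3 array 2 (61 and 92) and without TN2 array 2 (7), and without young arrays 3 and 5 there were 55 and 53 above both. Of the 61 genes called higher without TN3 array 2, 51 were among the 386.

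Of 79 called genes followed through 26 other settings, 19 kept their call and direction in all of them, 60 lost the call in at least 1 and 2 turned direction. The latter were Cxcr4 (0.0544) and Glrx2 (0.0925), both when arrays were scaled to one median. Without TN3 array 1, 23 of the 79 lost their call, and without TN3 array 2, 44. Uncalled genes also turned. Ptprc ranged from -0.0287 to 0.407 over the fits that left out 1 array, and was -0.0286 with chip 3 controls. Eif2s3y ranged from -0.912 to 1.74 over the same fits, and was -0.0514 as a mean of probes, -1.36 with young arrays of chip 2 and -0.905 with chip 3 controls. Xist ranged from -2.72 to 2.20, and was 0.0555 when scaled to one median, 2.23 with young arrays of chip 2 and 2.18 with chip 3 controls. The causes were not tested. No paired analysis was possible because the labels give no replicate numbers and no chip held both young and control cells. TN2 and TN3 do share chips, and with chip as a fixed term, chosen after seeing the data, 137 genes were higher and 69 lower in TN2 than in TN3, of which 119 and 57 were among the 122 and 59. Signals near the floor limit all genes undetected in TN3.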

Other observations

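Other genes outside the naming rule were among the 52 called higher than TN3 with the control arrays of either chip, and they were chosen after their values were seen. Cst7, the cystatin F gene of cytotoxic and myeloid cells, had log2 means of 5.61 in young cells, 4.29 in TN3 and 6.23 in TN2 (1.32 ± 0.22 against TN3, limma's adjusted p = 0.00108). Lamp2, a lysosomal membrane protein gene, was at 8.51, 7.25 and 8.28, and Myo1f, a class I myosin gene of blood cells, at 5.23, 4.16 and 6.09. Myo1f was also called below TN2 (-0.86, adjusted p = 0.0197). Among the 11 genes called lower in the same way, Ugt3a1, a glycosyltransferase gene, was at 4.23, 6.00 and 4.30, and Mapk8ip1, a scaffold gene of JNK signalling, at 4.40, 6.19 and 4.23. For both, young cells lay near TN2 and below TN3.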
